A study of Mus musculus with 9 samples.

Results

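The 2'-5' oligoadenylate synthetase (OAS) genes were followed in mouse bone marrow-derived macrophages given a chemokine or a control protein. The family was taken by gene symbol as Oasl1, Oasl2, Oas3, Oas2, Oas1a and Oas1g, and 6 of 6 were among the 13593 genes of the deposited count table. The macrophages were grown for 7 days from marrow of wild type C57BL/6 mice aged 6 weeks, in medium with 15% supernatant of L929 cells, a fibroblast line that releases macrophage growth factor. One group received CCL26, another CX3CL1 and the control group bovine serum albumin (BSA), all at 4 nM for 4 h, with 3 RNA-seq libraries in each of the 3 groups. The series title names CX3CL1 and CCL26 as ligands of the receptor CX3CR1 and asks how their effects differ. The labels do not say whether replicates came from separate mice or cultures, so the spread behind the p-values may be technical.

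OAS proteins are sensors of double-stranded RNA that are induced by interferons. On binding it, the active enzymes join ATP into short chains with 2'-5' linkages (2-5A), which act as second messengers of the antiviral response. Oas1a and Oas1g encode small synthetases, while Oas2 and Oas3 encode larger ones built from repeated synthetase units. Oasl1 and Oasl2 carry ubiquitin-like repeats at their ends; in the mouse, Oasl2 keeps synthetase activity, whereas Oasl1 lacks it and has been described as a repressor of the translation of Irf7, a transcription factor for type I interferons.

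The 6 genes lie in 2 groups on mouse chromosome 5 (GRCm38, GENCODE M21). Oasl2 (114896936 to 114912234) and Oasl1 (114923240 to 114937915) are neighbours on the plus strand. Oas2 (120730333 to 120749853), Oas3 (120753098 to 120777661), Oas1g (120876142 to 120887613) and Oas1a (120896256 to 120907521) follow each other on the minus strand. The interferon-stimulated response element (ISRE) is a known element of interferon-induced promoters, and those of the members were searched for it on both strands as GAAA, any 2 bases and GAAA. RefSeq promoters (GRCm38.p6) were matched for 5 of the 6 members; Oas2 had no entry. Shown are the 250 bases before the RefSeq start of the 2 genes that passed the test in all 9 libraries (Oasl1 and Oasl2) and of a large and a small synthetase (Oas3 and Oas1a), each 5′ to 3′ on the gene's own strand with ISRE matches in capitals. They are chr5:114922990-114923239 (plus strand), chr5:114896684-114896933 (plus), chr5:120777660-120777909 (minus) and chr5:120907526-120907775 (minus).
Oasl1: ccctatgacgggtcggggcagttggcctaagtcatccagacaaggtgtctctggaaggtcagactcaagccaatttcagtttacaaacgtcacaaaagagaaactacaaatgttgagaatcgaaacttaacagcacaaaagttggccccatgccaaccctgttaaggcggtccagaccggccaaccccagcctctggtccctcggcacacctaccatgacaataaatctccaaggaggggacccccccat
Oasl2: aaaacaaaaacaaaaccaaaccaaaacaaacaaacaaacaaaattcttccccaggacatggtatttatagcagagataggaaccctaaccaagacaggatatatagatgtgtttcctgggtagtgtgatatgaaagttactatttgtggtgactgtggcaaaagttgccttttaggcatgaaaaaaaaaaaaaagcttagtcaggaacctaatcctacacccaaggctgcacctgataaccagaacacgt
Oas3: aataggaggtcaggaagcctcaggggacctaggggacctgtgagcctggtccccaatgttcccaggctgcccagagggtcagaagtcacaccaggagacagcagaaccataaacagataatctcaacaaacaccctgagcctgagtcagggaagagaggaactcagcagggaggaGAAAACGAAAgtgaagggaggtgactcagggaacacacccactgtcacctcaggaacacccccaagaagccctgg
Oas1a: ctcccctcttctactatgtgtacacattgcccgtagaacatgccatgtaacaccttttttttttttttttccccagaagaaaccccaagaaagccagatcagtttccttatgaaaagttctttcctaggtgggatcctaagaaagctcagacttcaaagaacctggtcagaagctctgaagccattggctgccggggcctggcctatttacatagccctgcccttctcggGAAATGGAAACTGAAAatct

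Oas1a held 2 ISRE matches that share a GAAA, GAAATGGAAA beginning 20 bases and GAAACTGAAA beginning 14 bases before the start. Oas1g held the same pair at 18 and 12 bases, and its promoter was identical to that of Oas1a at 82.8% of aligned positions (212 of 256). Oas3 held GAAAACGAAA at 75 bases before the start. The motif did not occur in the windows of Oasl1 and Oasl2, and it occurred in 2.98% of all 32851 RefSeq promoters of this length (978). The gamma-activated site, searched as TTCNNNGAA, which reads the same on both strands, occurred once in the Oas1a window and in 7.02% of all promoters (2306). Outside the Oas1a and Oas1g pair, promoters of members were identical at 41.5% to 48.2% of aligned positions. These matches describe letters in 1 window and say nothing of binding.

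Libraries held 16923982 to 23198324 counts. CX3CL1 replicate 1 stood apart: 1193 genes had no count in it, against 80 to 170 elsewhere, and its mean correlation with the other 8 libraries across genes was 0.918, against 0.979 to 0.982 for any other library. Its departure from its 2 replicates correlated with exon length (Spearman rho -0.491 across 12905 genes, which are not independent replicates), against -0.121 to 0.1003 for the CCL26 and BSA libraries. Among the OAS genes it lay above the mean of its replicates for Oas1g (log2 difference 1.22) and Oas1a (0.86), below it for Oas2 (-1.35), Oasl1 (-0.72) and Oas3 (-0.54), and level with it for Oasl2 (0.04). The part of RNA length or quality in these values was not tested. Each result is therefore given for all 9 libraries, which share 1 estimate of the spread, and for the 8 libraries without this one.

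With CCL26, Oasl1 and Oasl2 rose over BSA in the fit of all 9 libraries, Oasl1 4.77-fold and Oasl2 1.87-fold. Leaving out any 1 CCL26 or BSA library from the 9 ended both calls (edgeR adjusted p up to 0.213 for Oasl1 and 0.172 for Oasl2), with log2 fold changes of 2.04 to 2.57 and 0.83 to 0.93. All 6 members had positive log2 fold changes, as 50.7% of tested genes did, with a median of 0.71 against 0.0044 over all tested genes. In the 8 libraries without CX3CL1 replicate 1, Oas3, Oas2 and Oas1a also rose, and Oas1g did not pass the test. Genes called higher made up 0.387% of the 12915 tested in 9 libraries, where 2 of 6 members were called, and 9.74% of the 13245 tested in 8, where 5 of 6 were called (edgeR quasi-likelihood test, p adjusted by Benjamini-Hochberg over all tested genes, threshold 0.05). No member fell, while 0.0465% of genes were called lower in 9 libraries and 9.26% in 8. The 3 CCL26 libraries lay above the 3 BSA libraries for 5 of 6 members, against 16.6% of all tested genes, and the exception was Oas1g.

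Oasl1, the member without synthetase activity, had 14.1, 11.3 and 15.2 CPM (counts scaled to library size) with CCL26, 1.19, 2.37 and 2.20 CPM with CX3CL1 and 2.62, 3.93 and 1.93 CPM with BSA. Every CCL26 library was above the highest of the other 6, and the CX3CL1 and BSA libraries overlapped. These values rest on 317, 235 and 280 reads with CCL26, 18, 41 and 52 with CX3CL1 and 51, 77 and 34 with BSA, so the denominator of its fold is small. The log2 fold change of CCL26 over BSA was 2.25 (SE 0.328, n = 3 each, edgeR adjusted p = 0.0324), and it was also 2.25 without CX3CL1 replicate 1 (SE 0.216, adjusted p = 2.37e-08). An antisense gene, Gm13822 (114917318 to 114923277, minus strand), overlaps only the start of Oasl1, from 114923240 to 114923277. It had 0, 6 and 10 counts with CCL26 and 0, 1 and 0 with BSA. Reads from the overlap cannot be assigned, since the sources used here do not say whether counting used strand.

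Oasl2, its neighbour, had 72.7, 64.1 and 63.5 CPM with CCL26, 40.9, 37.7 and 41.6 with CX3CL1 and 34.6, 36.8 and 36.0 with BSA. The 3 groups did not overlap; CX3CL1 lay above BSA without overlap in 4.77% of all tested genes. CCL26 over BSA gave a log2 fold change of 0.90 (SE 0.116, edgeR adjusted p = 0.0169; without CX3CL1 replicate 1 0.90, SE 0.0789, adjusted p = 4.33e-09). Oasl2 was the only member whose values in CX3CL1 replicate 1 lay within those of the other CX3CL1 libraries.

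Oas3, the largest synthetase, had 62.6, 72.5 and 74.7 CPM with CCL26, 27.4, 43.8 and 36.4 with CX3CL1 and 45.2, 40.3 and 35.7 with BSA. Oas2, the middle-sized synthetase, had 51.4, 56.6 and 47.0 CPM with CCL26, 13.9, 34.2 and 38.2 with CX3CL1 and 31.9, 37.5 and 31.4 with BSA. For both genes the CCL26 libraries were the 3 highest of the 9, and the lowest value was that of CX3CL1 replicate 1. Over BSA, the log2 fold change with CCL26 was 0.79 for Oas3 (SE 0.185, edgeR adjusted p = 0.215) and 0.62 for Oas2 (SE 0.315, adjusted p = 0.902) in 9 libraries. Without CX3CL1 replicate 1 the sizes were the same to 2 decimals, the standard errors were 0.0918 and 0.0913, and the adjusted p-values were 5.17e-07 for Oas3 and 1.61e-05 for Oas2. That library enters this comparison only through the steps all libraries share: the filter, the scaling and the estimate of the spread.

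Oas1a, a small synthetase, had 92.5, 93.8 and 97.7 CPM with CCL26, 142, 77.5 and 78.2 with CX3CL1 and 85.5, 78.7 and 78.4 with BSA. Oas1g had 27.4, 21.4 and 20.6 CPM with CCL26, 39.8, 16.4 and 17.3 with CX3CL1 and 17.3, 18.4 and 22.4 with BSA. CX3CL1 replicate 1 was the highest of the 9 for both genes; apart from it, the CCL26 libraries were the 3 highest for Oas1a and overlapped BSA for Oas1g. The log2 fold change of CCL26 over BSA was 0.23 for Oas1a (SE 0.223, edgeR adjusted p = 1) in 9 libraries and 0.23 (SE 0.0605, adjusted p = 0.00785) in 8. For Oas1g it was 0.26 in both (SE 0.329, adjusted p = 1 in 9 libraries; SE 0.126, adjusted p = 0.157 in 8). The transcripts of these genes share sequence: 32.4% of the 150-base windows of Oas1a (563 of 1736) and 24.1% of those of Oas1g (563 of 2336) occur in the other gene. Reads from such windows may have been left uncounted, and this was not tested. No such window of the other 4 members occurred in any other annotated transcript.

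**Figure D1:**
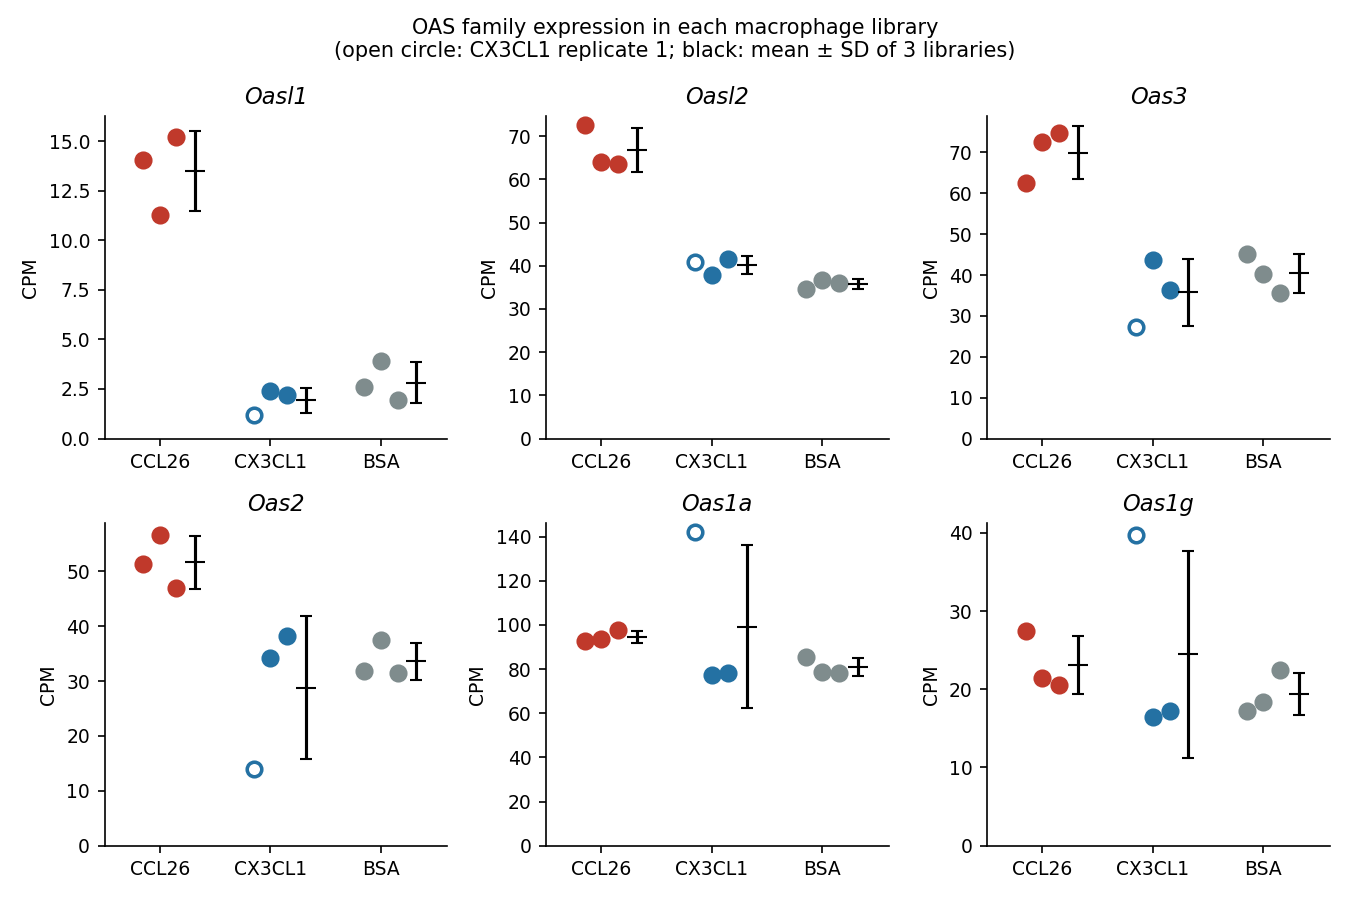
Each panel plots the CPM of 1 OAS gene in the 9 libraries by treatment, with the mean ± SD of 3 libraries in black and CX3CL1 replicate 1 as an open circle. The CCL26 points lie above all BSA points in every panel except Oas1g, and the open circle is the highest point for Oas1a and Oas1g and the lowest for Oas2, Oas3 and Oasl1.

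The chemokines were also compared directly. Oasl1 was 6.96-fold and Oasl2 1.67-fold higher with CCL26 than with CX3CL1 in 9 libraries, with log2 fold changes of 2.80 (SE 0.339, edgeR adjusted p = 0.0101) and 0.74 (SE 0.115, adjusted p = 0.0358). These were 2 of 6 members called higher, against 0.395% of all genes, and 4 of 6 had an unadjusted p under 0.05, as had 1484 of all 12915 genes. Leaving out 1 library other than CX3CL1 replicate 1 left 0 or 1 of the 6 called. Oas3 had a log2 fold change of 0.96 (SE 0.186, adjusted p = 0.0943) and Oas2 of 0.84 (SE 0.316, adjusted p = 0.423). The groups did not overlap for these 4 genes, against 12.9% of all genes. For Oas1a (-0.07, edgeR adjusted p = 0.879) and Oas1g (-0.08, adjusted p = 0.903) they did.

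Without CX3CL1 replicate 1 all 6 members were called higher with CCL26 than with CX3CL1, against 5.47% of all genes, with log2 fold changes of 2.57 for Oasl1, 0.81 for Oas3, 0.75 for Oasl2, 0.51 for Oas2, 0.46 for Oas1g and 0.28 for Oas1a. The edgeR adjusted p-values ran from 8.79e-08 for Oasl1 to 0.0390 for Oas1g. The values for Oas1a and Oas1g thus have opposite signs in the fits with and without the 1 high CX3CL1 library. The comparison with CX3CL1 and the comparison with BSA share the CCL26 libraries, so they are not independent of each other.

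CX3CL1 left no OAS gene called against BSA: 0 of 6 passed in 9 libraries and 0 of 6 in 8 (edgeR), 0 had an unadjusted p under 0.05, and DESeq2 and limma-voom also called 0 in 9 libraries. Over all genes, 0% were called in 9 libraries, where 405 had an unadjusted p under 0.05 and DESeq2 and limma-voom called 0, and 0.332% in 8 libraries, so few genes of any kind were called. A p above the threshold does not show that the groups are alike, so intervals are given. In 8 libraries the log2 fold change of CX3CL1 over BSA was -0.05 for Oas1a (95% interval -0.195 to 0.0867), -0.02 for Oas3 (-0.235 to 0.199), 0.15 for Oasl2 (-0.0341 to 0.337) and 0.11 for Oas2 (-0.102 to 0.325). The intervals were wider for Oas1g (-0.20, -0.493 to 0.10004) and widest for the sparsely counted Oasl1 (-0.32, -0.885 to 0.253). In 9 libraries the values were 0.34 for Oas1g, 0.29 for Oas1a, 0.16 for Oasl2, -0.17 for Oas3, -0.22 for Oas2 and -0.55 for Oasl1, and the signs of Oas1a, Oas1g and Oas2 were opposite to those in 8.

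**Figure D2:**
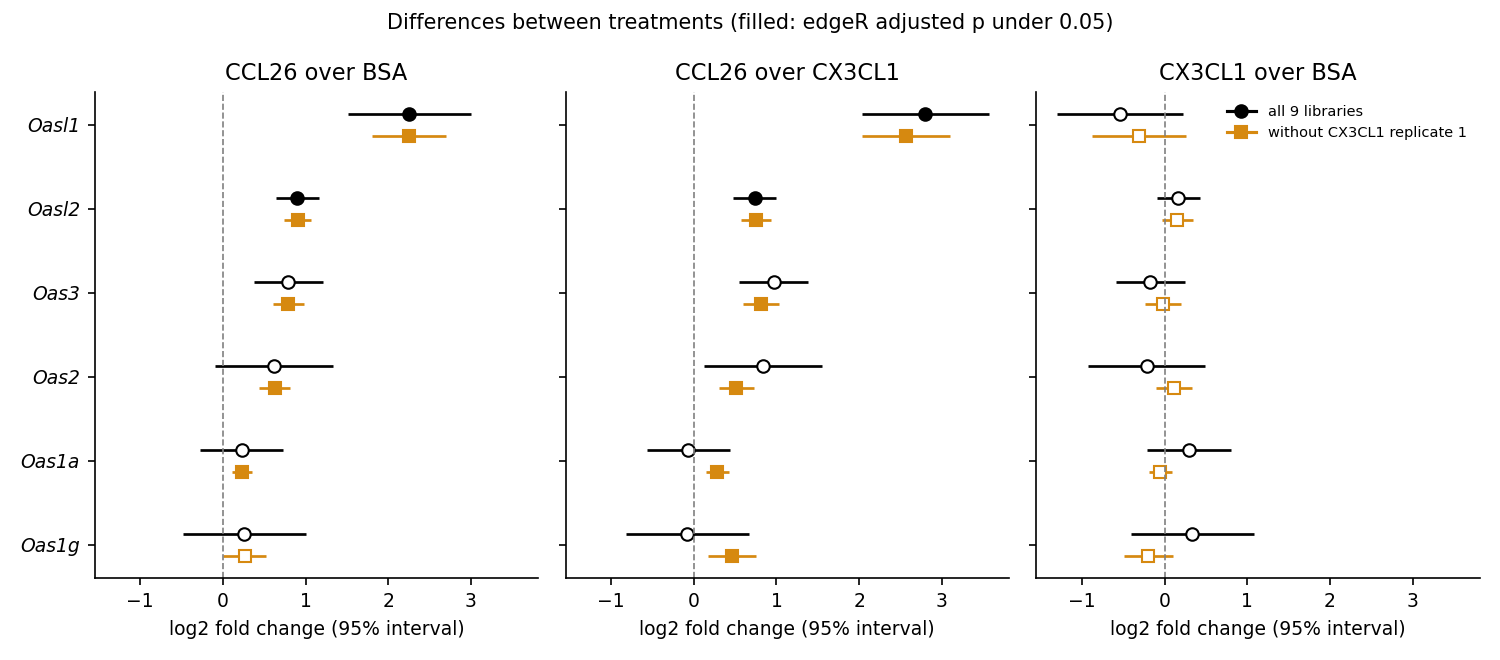
Log2 fold changes of the 6 OAS genes in the 3 comparisons, with 95% intervals, for all 9 libraries (black circles) and without CX3CL1 replicate 1 (orange squares), filled where the edgeR adjusted p is under 0.05. Oasl1 stands at 2.25 and 2.80 in the comparisons of CCL26, every interval of CX3CL1 over BSA includes 0, and the intervals of CCL26 over BSA narrow without the 1 library although their centres stay.

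The estimated difference between CCL26 and BSA varied in size among members and was largest for Oasl1. The log2 ratio of Oasl1 to each of the other 5 members was higher in every CCL26 library than in any BSA library, by 1.40 against Oasl2, 1.504 against Oas3, 1.68 against Oas2, 2.05 against Oas1g and 2.07 against Oas1a. The ratios of Oasl2, Oas3 and Oas2 to Oas1a, and of Oasl2 to Oas1g, were also higher without overlap, by 0.67, 0.57, 0.39 and 0.64. The pairs reuse the same members, so they are not separate results, and no share was computed for pairs of other genes. In all, 9 of 15 pairs did not overlap. Each of these had an exact two-sided permutation p of 0.1, the smallest that 3 against 3 libraries allow, and 0.167 after adjustment over the 15 pairs, so none could pass. Oasl2 and Oas3 differed by 0.10 in their responses (exact p = 0.7) and Oas1g and Oas1a by 0.02 (exact p = 0.8).

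Levels between genes were compared per kilobase of annotated exon, joined over all annotated transcripts of a gene. Oas1a has 1 such transcript (1885 bases) and Oasl2 has 9 (6374 bases). The order of genes and their shares of a summed level therefore rest on this annotation, and which transcripts were expressed was not tested. The levels of Oas1a and Oas1g were not corrected for the sequence they share. With BSA, Oas1a stood far above the rest at 42.9 ± 2.12 CPM per kb (SD, n = 3), followed by Oas1g (8.28 ± 1.15), Oas2 (7.55 ± 0.759), Oas3 (5.72 ± 0.670), Oasl2 (5.62 ± 0.170) and Oasl1 (1.08 ± 0.390). In that order the libraries of Oas1g and Oas2, and those of Oas3 and Oasl2, overlapped. With CCL26 the order was Oas1a (50.2 ± 1.44), Oas2 (11.6 ± 1.09), Oasl2 (10.5 ± 0.804), Oas3 (9.89 ± 0.913), Oas1g (9.89 ± 1.597) and Oasl1 (5.18 ± 0.774), and the 4 genes in the middle overlapped each other. With CX3CL1, leaving out replicate 1, the means were 41.3 for Oas1a, 8.14 for Oas2, 7.21 for Oas1g, 6.23 for Oasl2, 5.67 for Oas3 and 0.876 for Oasl1. In CX3CL1 replicate 1 itself, Oas1a stood at 75.3 and Oas1g at 17.0 CPM per kb.

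The summed level of the 6 genes was 98.0, 96.3 and 97.5 CPM per kb with CCL26, 106, 68.8 and 70.0 with CX3CL1 and 72.7, 71.0 and 69.7 with BSA. The makeup of the sum moved too. Oas1a made up 51.6 ± 1.53% of it with CCL26 and 60.3 ± 1.85% with BSA, while Oasl1 made up 5.32 ± 0.757% and 1.52 ± 0.544%. Oasl2 made up 10.8 ± 0.762% with CCL26 and 7.90 ± 0.372% with BSA, and Oas3 10.2 ± 0.990% and 8.02 ± 0.768%. Oas1a, the most abundant member, had the smallest log2 fold change over BSA (0.23), and Oasl1, the least abundant, the largest (2.25).

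**Figure D3:**
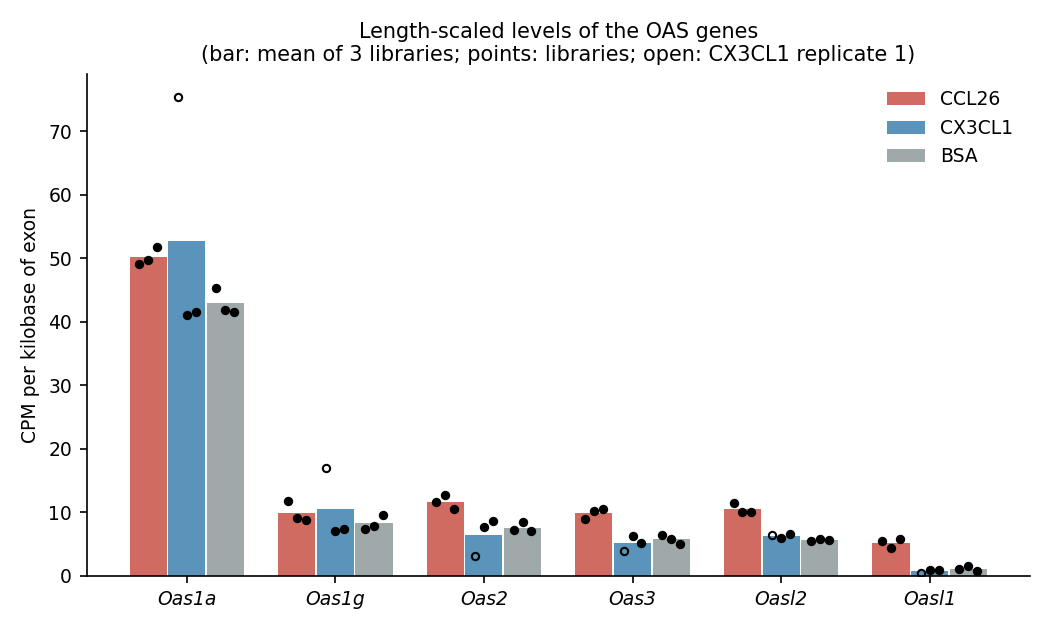
Levels of the OAS genes in CPM per kilobase of exon, with bars for the mean of 3 libraries per treatment and points for single libraries (CX3CL1 replicate 1 open). Oas1a lies between 41.1 and 75.3 in all 9 libraries, and Oasl1 stays below 6 in each of them.

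Of 3 genes listed for the turnover of 2-5A and its pathway, 0 were called in any of the 3 comparisons by edgeR, with or without CX3CL1 replicate 1, or by DESeq2 or limma-voom in 9 libraries, and 0 had an unadjusted p under 0.05 with CCL26 against BSA. Pde12, a phosphodiesterase that degrades 2-5A, was at 26.9 ± 2.70 CPM with CCL26 and 26.3 ± 3.77 CPM with BSA (SD, n = 3 each), a log2 fold change of 0.03 (SE 0.248, adjusted p = 1 by edgeR). Akap7, whose phosphodiesterase domain also degrades 2-5A, had a log2 fold change of 0.63 (SE 0.374, edgeR adjusted p = 0.993). Abce1, a ribosome recycling factor, had a log2 fold change of -0.03, and the median of the 3 was 0.03.

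Some genes listed for type I interferon signalling and its regulation rose with CCL26. Their part in the OAS values was not tested. Of 15 listed, 13 were in the table and tested, and 3 rose over BSA in 9 libraries, where 0.387% of all genes did. Usp18, a negative regulator of the interferon receptor, was at 44.7 ± 6.50 CPM with CCL26 and 18.5 ± 0.699 CPM with BSA, a log2 fold change of 1.27 (SE 0.157, adjusted p = 0.0146 by edgeR). Stat2, a subunit of the ISRE-binding complex, rose by 1.06 (SE 0.171, adjusted p = 0.0432), and Irf1, a transcription factor that also binds ISREs, by 0.99 (SE 0.149, adjusted p = 0.0344). Irf9, the DNA-binding subunit of that complex, had 0.83 (adjusted p = 0.0893). Irf7, chosen after its values were seen because Oasl1 acts on it, was at 39.5 ± 2.51 CPM with CCL26 and 19.6 ± 2.40 CPM with BSA (1.01, SE 0.213, edgeR adjusted p = 0.137). Without CX3CL1 replicate 1, 8 of 13 rose and 0 fell, with Irf7 and Irf9 among the 8; of all genes, 9.74% rose and 9.26% fell in that fit. The list's median was 0.27. Against CX3CL1, 1 of 13 rose with CCL26 in 9 libraries (Stat2, 1.16, edgeR adjusted p = 0.0267), against 0.395% of all genes. Without CX3CL1 replicate 1, 7 of 13 rose, against 5.47% of all genes. Of the 13, 0 were called with CX3CL1 against BSA in either fit (edgeR; 1 had an unadjusted p under 0.05 in 9 libraries), and 0 by DESeq2 or limma-voom. Ifnb1 and Ifna4 were not in the count table, so their level is not known here.

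Other sensors and effectors of double-stranded RNA and nucleic acids had a median log2 fold change of 0.60 with CCL26 over BSA, and 12 of 13 tested were positive. In 9 libraries edgeR called 0 of them (7 had an unadjusted p under 0.05, as had 792 of all 12915 genes). There limma-voom called 1 and DESeq2 3, all higher. Over all genes DESeq2 also called more than edgeR did, as given below, and the total of limma-voom is not given. In 8 libraries 9 rose and 1 fell by edgeR, against 9.74% and 9.26% of all genes. Ifih1, which encodes the RNA sensor MDA5, was at 81.2 ± 7.08 CPM with CCL26 and 33.6 ± 1.77 CPM with BSA (1.27, SE 0.251, edgeR adjusted p = 0.103; 1.36e-11 without CX3CL1 replicate 1). Ddx58, the gene of the sensor RIG-I, had 0.96 (adjusted p = 0.0550; 3.92e-11 without that library), and Dhx58, a regulator of both, had 0.83 (0.137; 1.72e-05). Ifi204, a DNA sensor, had 0.60 (0.376; 6.40e-07). Prkra, an activator of the double-stranded RNA kinase PKR, was the 1 that fell in 8 libraries (-0.52, edgeR adjusted p = 0.00318). Against CX3CL1, Ddx58 (1.11) and Ifih1 (1.56) rose with CCL26 in 9 libraries, against 0.395% of all genes. In 8 libraries 9 of 13 rose, against 5.47% of all genes. With CX3CL1 against BSA, 0 of 13 were called in 9 libraries by edgeR (0 with an unadjusted p under 0.05), DESeq2 or limma-voom, and 1 fell in 8 (Ifi204, -0.41, edgeR adjusted p = 0.0285).

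**Figure D4:**
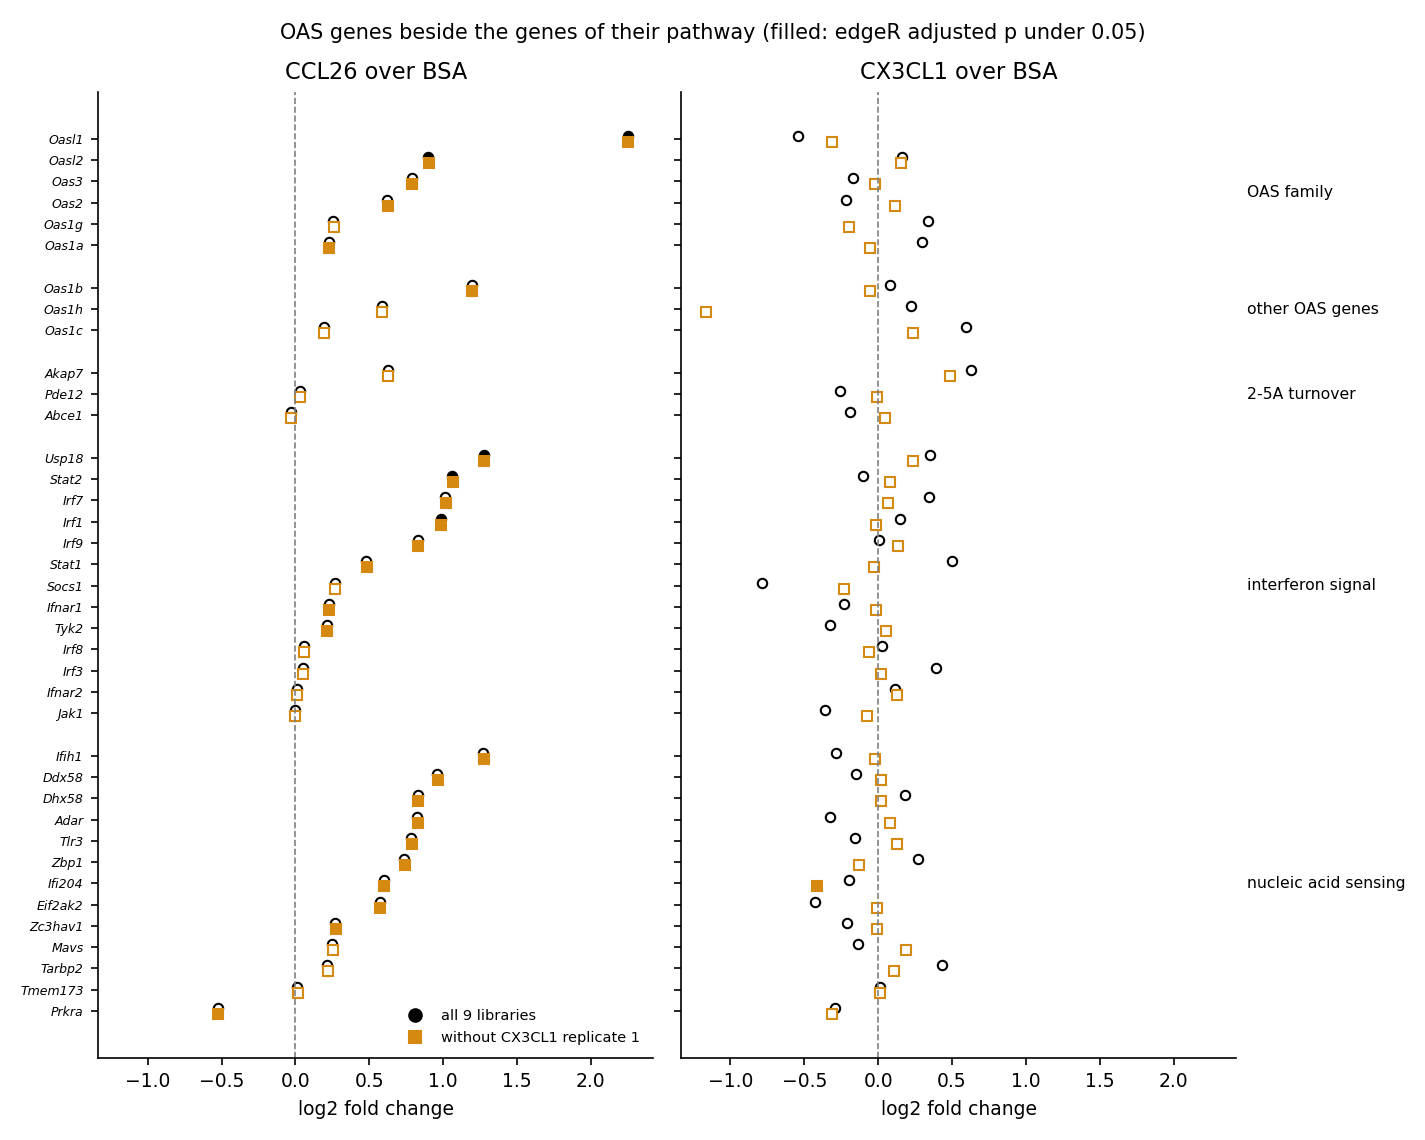
Log2 fold changes of the OAS genes and of the listed genes of their pathway for CCL26 over BSA and CX3CL1 over BSA, for all 9 libraries (black circles) and without CX3CL1 replicate 1 (orange squares), filled where the edgeR adjusted p is under 0.05. In the left panel the OAS genes run from 0.23 to 2.25, Usp18 and Ifih1 stand at 1.27 and Pde12 at 0.03; in the right panel only Ifi204 is filled, and only without CX3CL1 replicate 1.

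Of 6 further mouse OAS genes, 3 were in the table. Oas1b, which confers resistance to flaviviruses in wild mice and is truncated in C57BL/6 mice, had 5.95, 3.74 and 5.59 CPM with CCL26, 2.85, 1.51 and 2.70 CPM with CX3CL1 and 2.001, 2.29 and 2.38 CPM with BSA. All 3 CCL26 libraries were above all 6 others. Its log2 fold change over BSA was 1.19 (SE 0.313, n = 3 each, edgeR adjusted p = 0.310), and 1.20 without CX3CL1 replicate 1 (SE 0.276, adjusted p = 0.00261). Oas1c (0.19) and Oas1h (0.59), with means under 2 CPM in CCL26 and BSA libraries, did not pass in either fit. Oas1d, Oas1e and Oas1f were not in the count table.

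The 8 genes outside the family whose log2 CPM was most like the mean of the standardised members over the 9 libraries were Cd69 (Pearson r 0.998), Cdk7 (0.993), Ifit1 (0.993), Slfn5 (0.992), Cxcl10 (0.991), Tlr2 (0.989), Tnip1 (0.988) and Ccrl2 (0.987). Libraries share treatments, so r is a description with no p. Cd69, an early activation antigen, had 26.4 ± 0.534 CPM with CCL26, 9.29 ± 2.12 with CX3CL1 and 8.43 ± 0.688 with BSA. Ifit1, an interferon-induced binder of viral RNA, had 105 ± 8.69, 24.02 ± 4.13 and 20.4 ± 2.56 CPM in the same groups. Without CX3CL1 replicate 1 the 8 most like genes were Peli1, Cd69, Rnf213, Slfn2, Sowahc, Acod1, Cdk7 and Ddx58, of which Cd69 and Cdk7 were shared with the first list. The likeness of members to their own mean also depended on that library. Each member is part of that mean, so its r cannot be set beside those of the genes outside the family. Over 9 libraries r was 0.977 for Oasl2, 0.910 for Oasl1, 0.815 for Oas3, 0.545 for Oas2, 0.359 for Oas1a and 0.336 for Oas1g, and over 8 it was 0.977, 0.980, 0.935, 0.928, 0.931 and 0.725 in that order.

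All 8 listed macrophage markers were in the table, with a summed level of 23833 to 24369 CPM with CCL26, 27705 to 41967 with CX3CL1 and 29508 to 30034 with BSA, most of it Lyz2. Of these markers, 0 were called with CCL26 against BSA in 9 libraries (edgeR; 1 had an unadjusted p under 0.05; DESeq2 and limma-voom also 0) and 6 fell in 8, against 9.26% of all genes. In 8 libraries, where 9.74% of all genes rose, 2 neutrophil markers and 1 monocyte marker also rose and 1 B cell marker fell. Neutrophil markers (5 of 6 in the table) summed to 46.9 to 50.5 CPM with CCL26, 43.8 to 144 with CX3CL1 and 38.7 to 40.3 with BSA. B cell markers (2 of 4) summed to 17.3 to 21.0 CPM with CCL26, 21.9 to 70.9 with CX3CL1 and 23.2 to 25.5 with BSA. Of 5 listed markers of plasmacytoid dendritic cells, which make type I interferon, only Il3ra and Tcf4 were in the count table. Siglech, Ccr9 and Klk1 were not, so these 2 genes do not show whether such cells were present. Il3ra and Tcf4 summed to 87.7 to 96.6 CPM with CCL26, 90.5 to 142 with CX3CL1 and 83.2 to 91.6 with BSA. Monocyte markers (4 of 4) lay between 6.05 and 9.81 CPM and stromal markers (3 of 4) between 0 and 2.28 CPM in all libraries. The 4 listed T and NK cell markers were not in the count table, so their level is not known here. The part of these markers in the OAS values was not tested, and in such bulk samples fewer cells of a type and less RNA per cell cannot be told apart.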

How the data were processed

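Per the labels' protocols, column-purified RNA went into NEBNext Ultra II libraries, read as pairs of 150 bp. The authors deposited whole-number counts per gene, not normalized, and the submitters' processing notes name STAR, featureCounts, MultiQC, GRCm38 and mm10, with no versions. All 9 columns were matched to libraries by their label codes. Genes were filtered with filterByExpr and scaled by TMM factors, and edgeR 4.0.16 (R 4.3.3) fitted group over all 9 libraries, with Benjamini-Hochberg adjustment over all tested genes and a threshold of 0.05. CPM uses TMM-scaled library sizes, and positive log2 fold changes are higher in the group named first. SE is the log2 fold change divided by the root of its F statistic. Ratios of member pairs used a pseudocount of 0.5 counts and an exact permutation test (scipy 1.17.1). Alternatives used DESeq2 1.42.0, limma 3.58.1, other scalings and filters, the replicate number as a block, and each library left out. Scripts were tested on simulated data. Members, lists and markers were chosen with earlier results of these data known. All members were named, with up to 4 genes of smallest p per list, genes within 250 kb of a member, and the 8 genes of highest likeness; others are said to be chosen afterwards. One listed gene is not reported here. Same-numbered replicates did not deviate together (correlations -0.107 to 0.0796 for 9 pairs, -0.116 to 0.122 for 18 pairs of different numbers). Between replicates, chi-square per degree of freedom was at least 3.91, so no pair agreed within counting noise. Depth was 16923982 to 23198324 counts per library, of which Oasl1, the member with fewest, had 18 to 317.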

Additional observations from a re-analysis of the deposited data

How the results depend on the processing

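For CCL26 against BSA, 2 of 6 OAS genes were called, and 2 or 3 under DESeq2, its size factors, limma-voom, a robust fit, upper quartile scaling and either other filter (none, or 5 CPM in 3 libraries). The count was 5 with only the 6 libraries of the comparison and 5 without CX3CL1 replicate 1; it was 0 without any 1 BSA or CCL26 library, so leaving out 1 library gave 0 to 5. Against CX3CL1 the count of 2 became 1 with upper quartile scaling, 0 with only 6 libraries and 0 to 6 with 1 library left out. For CX3CL1 against BSA it was 0 under all alternatives. The labels do not say whether replicate numbers pair the samples. With the replicate block, 0 members were called in each comparison, and without CX3CL1 replicate 1 the block gave 5 against BSA and 5 against CX3CL1. Alternatives added after seeing the data were that block, DESeq2 without CX3CL1 replicate 1 (5 against BSA, 6 against CX3CL1) and a further library left out beside it. Some of the last fits left 1 library with CX3CL1, so counts for CCL26 are not given for them. The edgeR fit of the same 8 libraries without the block called 2517 and 1338 of 13245 genes in these 2 comparisons. Totals for the block and for DESeq2 in 8 libraries are not given, so their counts do not single out the family. Genes called for CCL26 against BSA numbered 56, 248 with DESeq2, 14 with the block, 2417 with 6 libraries and 2517 without CX3CL1 replicate 1; against CX3CL1 they numbered 53, 253, 11, 4 and 1338.

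Directions that turned between fits included those of Oas1a and Oas1g in CCL26 over CX3CL1, uncalled and negative in 9 libraries but called and positive without CX3CL1 replicate 1; for CX3CL1 over BSA they were of uncalled values. Leaving out 1 library, or CX3CL1 replicate 1 and 1 more, CCL26 over CX3CL1 ranged from -0.21 to 0.30 for Oas1a and from -0.29 to 0.54 for Oas1g. CX3CL1 over BSA ranged from -0.077 to 0.44 for Oas1a, -0.27 to 0.55 for Oas1g, -0.48 to 0.20 for Oas2, -0.34 to 0.11 for Oas3 and -0.76 to 0.00057 for Oasl1. For Oas1a, Oas1g and Oas2 the sign opposite to that in all 9 libraries came with the loss of CX3CL1 replicate 1, apart from 0.00075 for Oas1g in CCL26 over CX3CL1 without CCL26 replicate 3; limma-voom gave 0.063 there. DESeq2 without CX3CL1 replicate 1 gave 0.28 and 0.46 for Oas1a and Oas1g in CCL26 over CX3CL1, and -0.055, -0.20 and 0.11 for Oas1a, Oas1g and Oas2 in CX3CL1 over BSA; the block without it gave 0.27, 0.43, -0.042, -0.17 and 0.10. Ratios with 1 library left out ranged from -0.12 to 0.16 for Oas1g to Oas1a and from -0.038 to 0.19 for Oasl2 to Oas3. Pairs without overlap numbered 9 to 11, and the lists of most like genes shared 2 of 8 without CX3CL1 replicate 1. The cause of these shifts was not tested. Oasl1 rests on the fewest counts, 18 to 77 outside CCL26.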

Other observations

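The genes around the followed members, among them Oas1b, Oas1c and Oas1h, were described apart from the family as taken here. Of 24 genes of the table that start within 250 kb of a member, 23 were tested, and 0 were called with CCL26 against BSA in 9 libraries (edgeR; 2 had an unadjusted p under 0.05; DESeq2 called 1 and limma-voom 0). Over all genes DESeq2 also called more than edgeR did, as given above. The median log2 fold change of the 23 was -0.10. Without CX3CL1 replicate 1, Oas1b (1.20) and Slc8b1 (0.21), a mitochondrial sodium-calcium exchanger, rose, and Gltp (-0.18), a glycolipid transfer protein, Sppl3 (-0.24), an intramembrane protease, and 2510016D11Rik (-0.62) fell. These 2 higher and 3 lower of 23 are near the shares of all genes in that fit, 9.74% and 9.26%. With CCL26 against CX3CL1, Oas1b (1.25) and Slc8b1 (0.25) rose in 8 libraries, 2 of 23 against 5.47% of all genes. With CX3CL1 against BSA, 0 of 23 were called in either fit (edgeR; 0 had an unadjusted p under 0.05 in 9 libraries; DESeq2 and limma-voom called 0). Gm13822, the antisense gene that overlaps Oasl1, was not tested and had 24, 2 and 0 counts in the CX3CL1 libraries.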
